A study of Mus musculus with 8 samples.

Results

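The 38 genes described here encode DNA repair proteins, and they were listed by name with no measured value in the rule, although earlier results of these data were known when the list was made. They comprised 8 genes of homologous recombination, 7 of break sensing and checkpoint signalling, 5 of non-homologous end joining, 8 of base excision and single-strand break repair, 4 of nucleotide excision repair, 2 of mismatch repair and 4 of the Fanconi anaemia pathway. They were read by 73 of the 41174 probes of a whole mouse genome array, 70 of them through the gene name in the deposited files and 3, those of Atr, through the probe description. All 38 genes could be tested, among 23017 genes and unnamed probes. The series compared RNA of mouse haematopoietic stem cells (HSC) that lacked E47 (KO) with RNA of wild-type HSC (WT). The 4 groups were KO HSC from secondary recipients, WT HSC from secondary recipients, KO HSC from primary recipients and WT HSC from primary recipients, with 2 arrays each. In every group the donor-derived HSC were sorted by flow cytometry out of the recipient mice and lysed, their cDNA was amplified by a global PCR (the SuperAmp service), labelled with Cy3 and hybridised to a one-colour array. The sources used here do not give strain, age, the number of donors and recipients, the markers used for sorting or the extent of the E47 deletion. Nothing states that the 2 arrays of a group came from separate mice, and the p-values rest on how far such paired arrays lay apart, a spread that could be technical alone.

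Cells repair broken DNA by homologous recombination, which copies the intact sister chromatid and so works after replication, or by end joining, which ligates the broken ends and also works in resting cells. Damaged or mispaired bases and bulky lesions are cut out by the excision and mismatch pathways, and the Fanconi anaemia proteins handle crosslinks between the strands. HSC rest for long periods, and mice that lack repair genes such as Atm, Lig4 or Fanconi anaemia genes lose HSC function, above all under the replication demand of transplantation. E47 is 1 of the splice products of Tcf3, a basic helix-loop-helix transcription factor that binds E boxes and is known for its part in lymphoid development.

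Replicate 2 of both primary groups was dim. The 75th percentile of its spot signal was 19.6 in KO and 36.6 in WT, against 321 to 847 on the other 6 arrays, and 35.4% of its spots in KO and 41.9% in WT were well above background, against 72.2% to 90.7% elsewhere. Medians, counts of low p-values and the main changes that use primary recipients are therefore also given without these 2 arrays. Counts of arrays that lay apart use all 8 arrays, since 1 array a primary group would be left. All 4 WT arrays lay on 1 slide, the KO secondary arrays on another and the KO primary arrays on the third, which means that the slide cannot be told apart from the genotype, nor from the recipient in KO cells. WT secondary against WT primary lies within 1 slide. The probe of Tcf3 gave processed signals of 1664 and 167 in KO and 1778 and 1773 in WT HSC of secondary recipients, and 83.8 and 101 in KO and 104 and 1278 in WT HSC of primary recipients. The sources do not say whether the deletion removed the stretch this probe reads, so it checks nothing. Of 12 HSC marker genes, 12 and 11 were above background on each KO and WT array from secondary recipients, and 6 to 12 and 6 to 11 on the KO and WT arrays from primary recipients. Neutrophil markers, 9 of 10 tested, summed to 0.0172% to 0.0299% of the signal in KO and 0.00911% to 0.0162% in WT HSC of secondary recipients, against 0.225% to 1.502% in KO and 0.302% to 0.787% in WT HSC of primary recipients. Of these 9 markers, 6 were above background on each WT secondary array, and S100a8, Lcn2 and Retnlg on neither. On the KO secondary arrays 7 to 8 were above background, and on the primary arrays 8 to 9 in both genotypes. The part of these cells in the results was not tested.

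Levels below are log2 of a spot's processed signal minus the 75th percentile of its array, from the brightest probe of each gene, with replicate 1 before replicate 2. A dagger marks a value that was not well above background. Levels of different genes come from different probes and cannot be compared with each other. Changes are differences of these levels relative to the median gene, with the standard error (SE) of limma over all 4 groups, while the p-values, adjusted over all genes tested, refer to the change before that centring.

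On the arrays from secondary recipients, 37 and 36 of 38 members were above background in KO and 36 on each array in WT, which makes 94.7% to 97.4%, against 93.7% to 99.2% of all genes tested. On those from primary recipients, the bright arrays had 33 in KO (86.8%, against 89.1% of all genes) and 34 in WT (89.5%, against 90.3%). The dim arrays had 17 in KO (44.7%, against 50.4%) and 19 in WT (50%, against 58.5%). Of the members, 15 (39.5%) were above background on all 8 arrays, against 42.7% of all genes tested. Chek2 and Pms2 were above background on all 4 secondary arrays and on no primary array, which makes 2 of 38 members (5.26%), against 1.26% of all genes (background). The reverse was shown by no member and by no other gene (background 0%). Brca2 and Fanca were also above background on no primary array, and on 3 of the 4 secondary arrays. Replicates of the members differed by a median of 2.06 in KO and 1.25 in WT HSC of secondary recipients, and by 2.003 in KO and 0.95 in WT HSC of primary recipients. The same median over all genes was 1.09 in KO and 0.82 in WT HSC of secondary recipients, and 1.72 in KO and 1.57 in WT HSC of primary recipients.

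**Figure D1:**
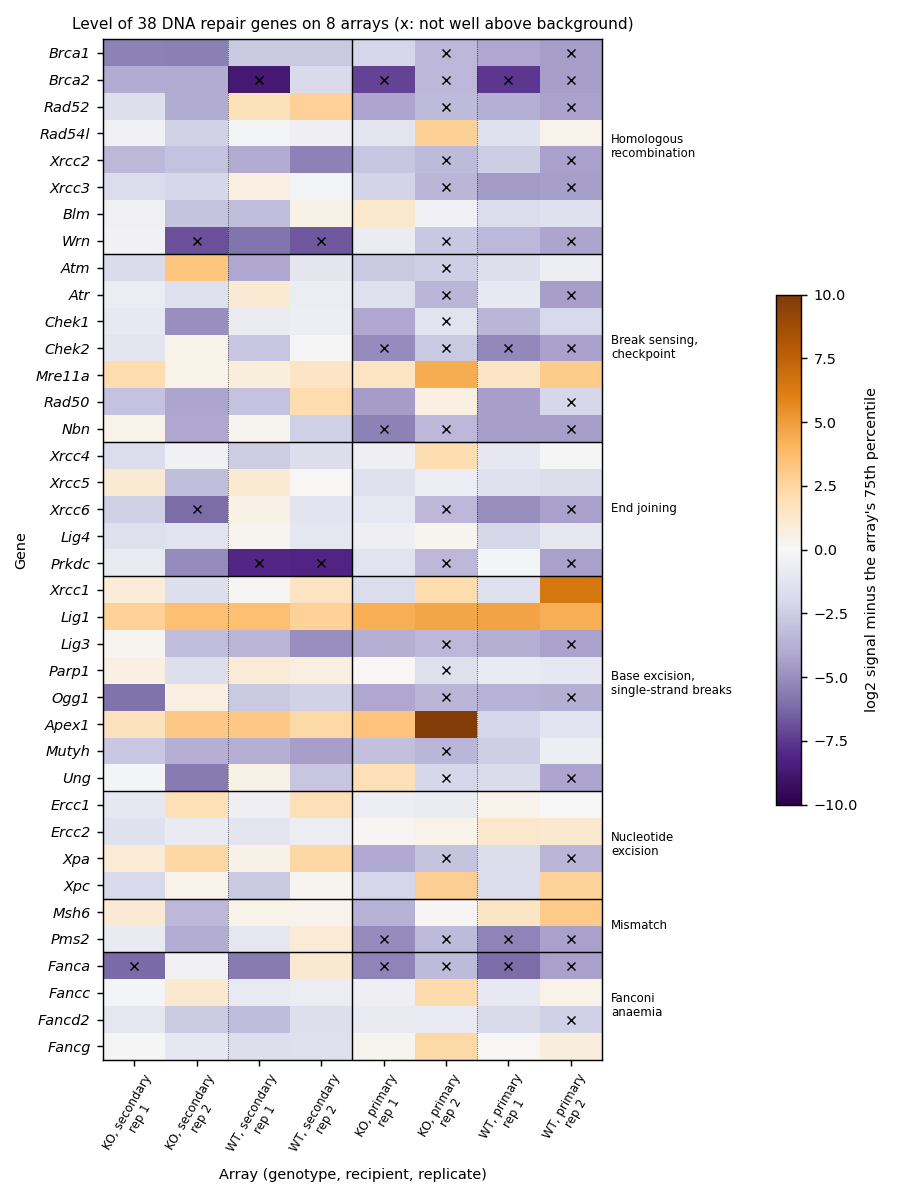
Level (log2 signal minus the 75th percentile of the array) of the 38 repair genes on each of the 8 arrays, by pathway, with crosses where the probe was not well above background. Crosses are most frequent in the replicate 2 columns of both primary groups, where 17 of 38 genes in KO and 19 of 38 in WT were above background.

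The least variable members above background on all 8 arrays were 2 DNA ligases. Lig1, the ligase that joins Okazaki fragments in replication and seals long repair patches, had levels of 2.73 and 3.65 in KO and 3.65 and 2.68 in WT HSC of secondary recipients, and 4.32 and 4.67 in KO and 4.70 and 4.33 in WT HSC of primary recipients. Its levels lay within 2.02 of each other, and both secondary groups lay below both primary groups. Lig4, the ligase of end joining, had levels of -1.52 and -1.41 in KO and 0.31 and -1.14 in WT HSC of secondary recipients, and -0.52 and 0.23 in KO and -2.08 and -1.06 in WT HSC of primary recipients. In secondary recipients both KO arrays lay below both WT arrays, and in primary recipients both KO arrays lay above both WT arrays. The KO against WT change was -1.503 (SE 1.02) in secondary recipients and 1.14 (SE 1.02) in primary recipients, or 1.41 there without the dim arrays, and their difference was not past the threshold (limma, adjusted p = 0.9999). A further probe of Lig4, above background on 3 arrays, had changes of -1.86 in secondary and -0.23 in primary recipients, the same sign in both. KO and WT arrays lay apart in opposite directions in the 2 kinds of recipient for 1 of 38 members (background 2.73%).

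In HSC of secondary recipients, no repair gene changed between KO and WT at an adjusted p under 0.05, and neither did any other gene (0% of 23017, limma). The members lay mostly below the median gene: 25 of 38 were below it and 13 above (50% of all genes are above by definition), with a median change of -0.71. Replicate 2 of KO stood apart, as the members' median level minus that of all genes was -0.03 on replicate 1 and -0.97 on replicate 2 in KO, against 0.23 and 0.62 in WT, and without replicate 2 of KO the median change was -0.38. Without adjustment, 3 members had a p under 0.05 and were lower (7.89%, background 1.66%), namely Rad52, Brca1 and Xrcc6, and 1 was higher (2.63%, background 3.7%), namely Prkdc. Both KO arrays lay below both WT arrays for 9 members (23.7%, background 12.2%) and above them for 6 (15.8%, background 33.9%). For these counts a gene had to be above background on both arrays of the brighter group, and undetected values were raised to the lowest detectable signal. The 9 lower members were Brca1, Rad52, Xrcc3, Atr, Chek1, Rad50, Xrcc6, Lig4 and Parp1, and the 6 higher ones were Xrcc2, Prkdc, Lig3, Mutyh, Fancc and Fancg. By pathway, the median change was -1.12 in homologous recombination, -1.24 in break sensing, -1.503 in end joining, -0.70 in base excision, -0.45 in nucleotide excision, -2.37 in mismatch repair and 0.31 in the Fanconi anaemia pathway. Markers of S phase and mitosis summed to 0.0568% to 0.0664% of the signal in KO and 0.0458% to 0.0547% in WT HSC of secondary recipients, and 16 and 14 to 16 of 16 were above background. T cell markers, 6 tested, summed to 0.00670% to 0.0157% in KO and 0.00444% to 0.00539% in WT, and B cell markers, 6 tested, to 0.0107% to 0.0117% in KO and 0.00978% to 0.0103% in WT. In both genotypes 5 to 6 of the T cell markers were above background. The part of any of these in the result was not tested.

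In HSC of primary recipients, no member and no other gene passed the threshold between KO and WT (0% of 23017, limma). The median change of the members was 0.26, with 23 of 38 above the median gene (background 50%), and -0.10 without the dim arrays. Before adjustment, 1 member with a p under 0.05 was higher (2.63%, background 1.99%), namely Apex1, and 0 were lower (background 1.98%), and without the dim arrays the counts were again 1, Apex1, and 0 (background 3.74% and 3.76%). Without replicate 1 of WT primary, which leaves the dim replicate 2 alone in its group, 540 genes passed the threshold, and 0 of them were members. Both KO arrays lay above both WT arrays for 5 members (13.2%, background 8.52%), namely Blm, Xrcc5, Lig4, Apex1 and Fancd2. They lay below them for 3 members (7.89%, background 6.62%), namely Ercc1, Ercc2 and Msh6. All 8 genes of homologous recombination lay above the median gene, with a median of 1.09, but 6 of the 8 were not above background on either dim array, and without these arrays 6 lay above it, with a median of 0.96. There the members' undetected values had a median of -3.36 in KO and -4.32 in WT, over the 17 members undetected on both. All 4 genes of nucleotide excision repair lay below the median gene, with a median of -1.14, or -1.22 without the dim arrays. S phase and mitosis markers summed to 0.0476% to 0.210% of the signal in KO and 0.0196% to 0.0257% in WT HSC of primary recipients, with 7 to 13 and 6 to 14 of 16 above background. T cell markers summed to 0.0200% to 0.0413% in KO and 0.00116% to 0.0127% in WT, with 5 to 6 and 3 to 6 of 6 above background. Their part in the result was not tested.

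**Figure D2:**
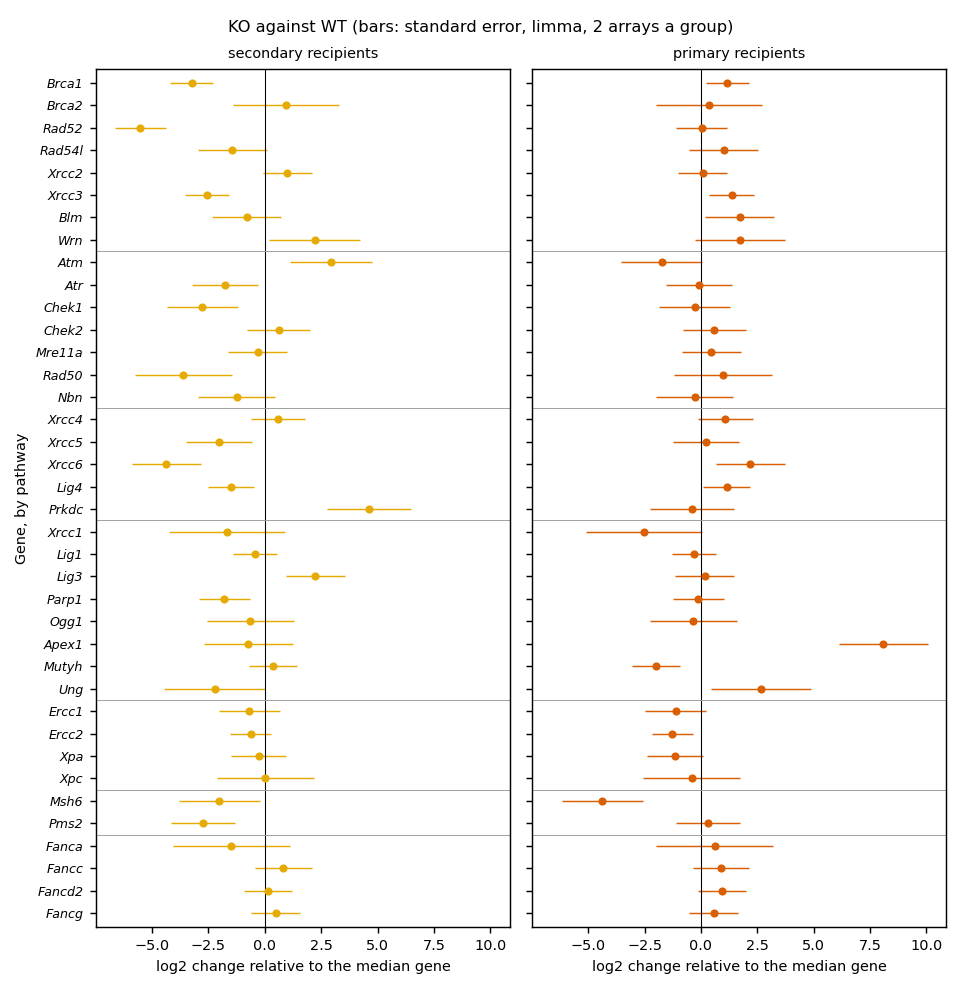
Change of each repair gene between KO and WT HSC (log2, relative to the median gene), in secondary recipients on the left and in primary recipients on the right, with limma's standard error as bars. Rad52 at -5.52 stands lowest on the left and Apex1 at 8.09 highest on the right, and no member passed the threshold in either.

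The difference between the KO against WT changes, secondary minus primary, was tested gene by gene. No member and no other gene passed (0% of 23017, lowest adjusted p of a member 0.9999, limma). Of the members, 5 had an unadjusted p under 0.05 and a lower change in secondary recipients (13.2%, background 1.73%), namely Brca1, Rad52, Xrcc3, Xrcc6 and Apex1, and 0 had a higher one (background 2.02%). Without the dim arrays these were 4, Brca1, Xrcc3, Xrcc6 and Apex1 (of 38, background 3.09%), and 0 (background 4.56%). The median difference over the members was -0.73, and -0.34 without the dim arrays. No member had its KO arrays on the same side of its WT arrays in both kinds of recipient, with background shares of 3.18% above and 0.999% below. Lig3, whose KO arrays lay above the WT arrays on the levels as measured in both kinds of recipient, had levels of 0.21 and -3.19 in KO and -3.44 and -4.94 in WT HSC of secondary recipients, and -3.77 and -3.40† in KO and -3.78 and -4.28† in WT HSC of primary recipients. Lig3 is the ligase that closes single-strand breaks with Xrcc1. Its change was 2.24 (SE 1.32, limma, adjusted p = 0.976) in secondary recipients, where replicate 1 of KO stood highest, and 0.16 (SE 1.32) in primary recipients, or -0.13 there without the dim arrays, where the detected arrays of the genotypes were nearly equal and the dim arrays did not detect it. A further probe of Lig3, above background on 3 arrays, had changes of -0.82 in secondary and -0.32 in primary recipients, the opposite sign in both.

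In WT HSC, secondary against primary recipients gave no gene past the threshold (0% of 23017, limma, lowest adjusted p of a member 0.326, for Rad52). The members lay mostly above the median gene, 25 of 38 (background 50%), with a median change of 1.58, and of 1.86 without the dim array. With the 15 members above background on all 8 arrays alone, their median was 0.36. At an unadjusted p under 0.05, 6 members were higher in secondary recipients (15.8%, background 5.43%), namely Rad52, Xrcc3, Chek2, Xrcc6, Xpa and Pms2. At the same limit 3 were lower (7.89%, background 6.53%), namely Prkdc, Mutyh and Ercc2. Without the dim arrays 4 of 38 were higher (background 6.62%), namely Rad52, Xrcc3, Apex1 and Pms2, and 1 was lower (2.63%, background 8.19%), namely Prkdc. Both secondary arrays lay above both primary arrays for 10 members (26.3%, background 12.7%) and below them for 7 (18.4%, background 29.8%). In KO HSC, no gene passed either (0% of 23017, limma, lowest adjusted p of a member 0.701, for Xpa). There the median change was 0.21, with 20 of 38 members above the median gene (background 50%), and 0.57 without the dim array. The direction turned to -0.20 over members above background on all 8 arrays, to -0.16 with the mean of all probes of a gene, to -0.17 without replicate 1 of KO primary and to -0.14 without replicate 1 of KO secondary. At an unadjusted p under 0.05, Xpa and Chek2 were higher in secondary recipients (5.26%, background 3.27%) and Brca1 was lower (2.63%, background 2.77%), and the same 3 genes without the dim arrays (background 5.57% and 4.04%). Both secondary KO arrays lay above both primary KO arrays for 2 members (5.26%, background 8.7%) and below them for 6 (15.8%, background 21.8%). Since the secondary and primary comparisons of KO against WT share their arrays with these comparisons, the 4 sets of changes are not independent. The neutrophil markers above differed between the same groups, and HSC markers summed to 0.0878% to 0.0978% of the signal in secondary and 0.00114% to 0.0377% in primary recipients in KO, and to 0.118% to 0.127% in secondary and 0.0350% to 0.137% in primary recipients in WT. Their part in the result was not tested. In sorted bulk RNA, fewer cells of a type and less RNA per cell cannot be told apart.

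**Figure D3:**
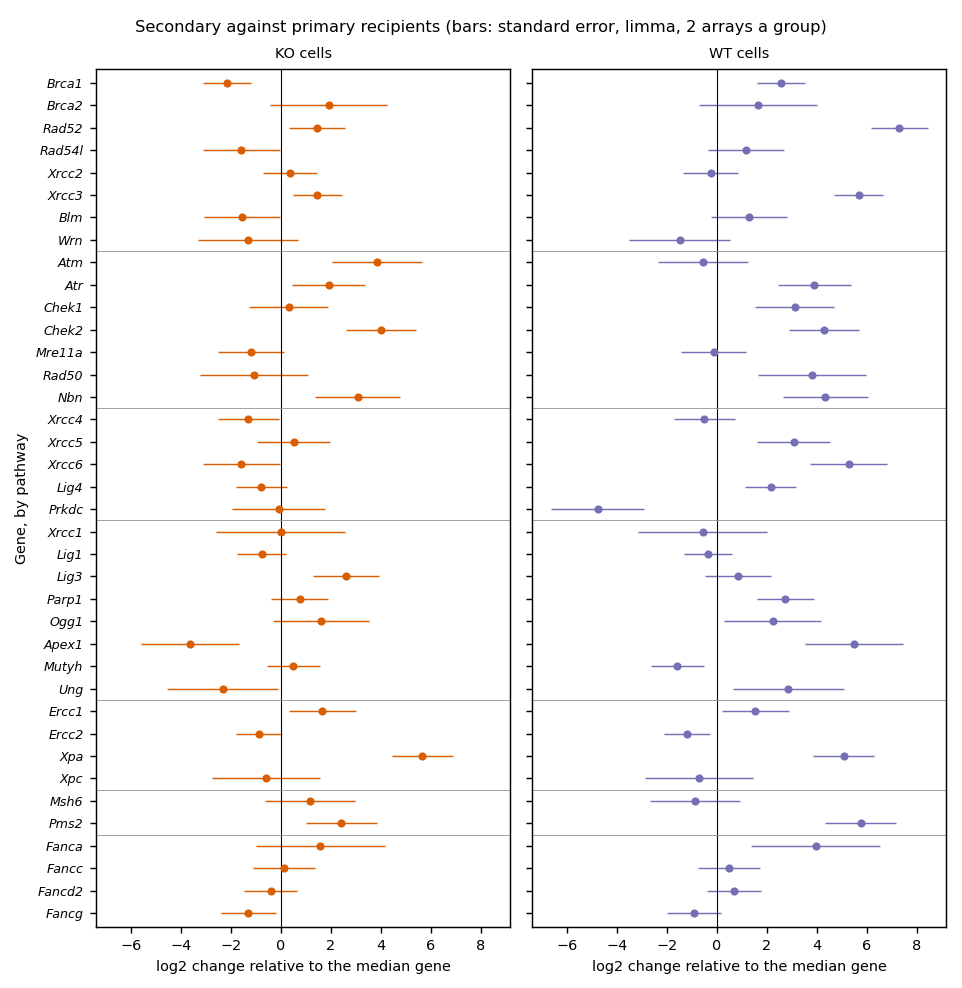
Change of each repair gene between secondary and primary recipients (log2, relative to the median gene), in KO HSC on the left and in WT HSC on the right, with limma's standard error as bars. Xpa stands at 5.66 in KO and 5.08 in WT, and Rad52 at 1.45 in KO and 7.30 in WT.

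Over both genotypes together, in an additive model, secondary against primary recipients gave 0 genes past the threshold (0%, limma), and the lowest adjusted p of a member was 0.0869, for Xpa. At an unadjusted p under 0.05, 6 members were higher in secondary recipients (15.8%, background 5.51%) and 2 were lower (5.26%, background 13.6%), with a median change of 0.76. Without both dim arrays 78 genes and 0 members passed, and the median was 1.20. With array weights 111 genes passed, with each probe by itself 103, with the mean of all probes 24 and with normexp background 1. The median was 0.34 over genes above background on all 8 arrays. Under quantile normalization, 205 genes passed, and Xpa was the 1 member among them (change 5.12, limma, adjusted p = 0.0411). KO against WT over both kinds of recipient gave 0 genes past the threshold (0%, limma), a median change of -0.36 and 0 members at an unadjusted p under 0.05 (background 3.52% higher and 1.16% lower). Without the dim arrays the median was -0.57. There 0 members were higher at that limit (background 4.36%) and 1, Rad52, was lower (2.63%, background 2.14%).

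Among the genes of homologous recombination, Brca1 and Rad52 had the lowest p between KO and WT in secondary recipients. Brca1 directs the resection of broken ends. Its levels were -5.42 and -5.49 in KO and -2.66 and -2.68 in WT HSC of secondary recipients, and -2.16 and -3.39† in KO and -4.08 and -4.39† in WT HSC of primary recipients. In secondary recipients the replicates of each genotype lay close together and KO was below WT, while in primary recipients the detected array of KO lay above that of WT. The change was -3.24 (SE 0.95, limma, adjusted p = 0.875) in secondary recipients and 1.17 (SE 0.95, adjusted p = 0.995) in primary recipients. Their difference was -4.51 (limma, adjusted p = 0.9999), and -5.08 without the dim arrays. Secondary against primary recipients was -2.15 in KO, or -3.06 without the dim array, and 2.56 in WT. A further probe of Brca1, 8814 bases away on the genome, did not show the pattern in secondary recipients, with levels of -0.79 and -6.12† in KO and -6.05 and -2.13 in WT. Its KO array of replicate 1 was the highest of the 4, and the arrays overlapped.

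Rad52, which anneals single strands, had levels of -1.62 and -3.98 in KO and 1.87 and 2.67 in WT HSC of secondary recipients, and -4.14 and -3.31† in KO and -3.79 and -4.29† in WT HSC of primary recipients. Both WT secondary arrays stood above the other 6 arrays, replicate 1 of KO secondary came next, and replicate 2 lay among the primary arrays. The KO against WT change was -5.52 (SE 1.13, limma, adjusted p = 0.765) in secondary recipients and 0.03 (SE 1.13) in primary recipients. Secondary against primary recipients was 1.45 in KO and 7.30 in WT (limma, adjusted p = 0.326), or 6.79 in WT without the dim array. The second probe of Rad52 lay 1639 bases away and had levels of -0.77 and -6.11† in KO and 0.16 and -6.17† in WT HSC of secondary recipients. There the replicates within each genotype differed by more than the genotypes.

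Xrcc3, which acts in strand exchange, had levels of -1.74 and -2.09 in KO and 0.67 and -0.29 in WT HSC of secondary recipients, and -2.24 and -3.45† in KO and -4.57 and -4.40† in WT HSC of primary recipients. The WT secondary arrays were again the highest and the KO secondary arrays lay below them. Its change between secondary and primary recipients was 1.45 in KO and 5.67 in WT (SE 0.98, limma, adjusted p = 0.332). KO against WT in primary recipients was 1.36, or 2.19 without the dim arrays. Xrcc2, which acts in the same step, had levels of -3.42 and -3.003 in KO and -3.93 and -5.41 in WT HSC of secondary recipients, and -2.81 and -3.29† in KO and -2.52 and -4.31† in WT HSC of primary recipients, so that KO lay above WT in secondary recipients by less than 1 SE of the fit (1.001, SE 1.09). A further probe of Xrcc2, above background on 5 arrays, had a change of -1.63 there, and another, above background on 1 array, had 1.57. Rad54l, a motor protein that helps strand invasion, was above background on every array, with a change of -1.44 (SE 1.53) in secondary and 1.01 (SE 1.53) in primary recipients, or 0.07 there without the dim arrays. The helicase gene Blm had KO above WT on both arrays in primary recipients, at 1.27 and -0.45 in KO and -1.75 and -1.44 in WT HSC of primary recipients. Brca2 had levels of -3.91 and -3.97 in KO and -8.74† and -1.91 in WT HSC of secondary recipients, and no array of the primary groups detected it.

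The probes of Brca1 and Rad52 are printed because the 2 probes of each gene gave different patterns. Coordinates are those of the files, in build mm8, on the strand given, and the sequences run 5′ to 3′.
Brca1, brightest probe, chr11:101314059-101318095, minus strand, across a splice junction: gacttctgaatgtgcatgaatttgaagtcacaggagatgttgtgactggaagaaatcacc
Brca1, second probe, chr11:101305185-101305244, minus strand: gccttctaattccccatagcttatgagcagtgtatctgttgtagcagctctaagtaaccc
Rad52, brightest probe, chr6:119886441-119886500, plus strand: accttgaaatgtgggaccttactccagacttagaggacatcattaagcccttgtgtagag
Rad52, second probe, chr6:119888140-119888199, plus strand: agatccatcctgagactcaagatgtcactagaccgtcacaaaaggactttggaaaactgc

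Among the break sensors, Atm and Atr, the kinases that signal breaks and stalled forks, had changes of opposite sign on their brightest probes in secondary recipients, and neither passed the test. Atm had levels of -1.85 and 3.33 in KO and -4.11 and -1.19 in WT HSC of secondary recipients, and -2.69 and -2.45† in KO and -1.63 and -0.58 in WT HSC of primary recipients. Replicate 2 of KO secondary stood above the other 7 arrays, and replicate 1 lay between the WT arrays. The KO against WT change was 2.93 (SE 1.80, limma, adjusted p = 0.984) in secondary recipients, or 0.40 without that replicate 2, and -1.75 (SE 1.80) in primary recipients. Their difference was 4.58, and 4.07 without the dim arrays (limma, adjusted p = 0.9999 with them). On the second probe of Atm the change was -1.01 in secondary recipients and 2.78 in primary recipients, the opposite sign in both. Atr had levels of -0.66 and -1.56 in KO and 1.05 and -0.66 in WT HSC of secondary recipients, and -1.501 and -3.50† in KO and -0.98 and -4.44† in WT HSC of primary recipients. Both KO secondary arrays lay below the WT ones, the nearest pair by less than the second decimal, -1.76 (SE 1.46). Further probes of Atr had changes of -1.55 and 1.44 in that comparison.

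Chek2, the checkpoint kinase downstream of Atm, had levels of -1.22 and 0.40 in KO and -2.87 and -0.08 in WT HSC of secondary recipients, and -5.12† and -2.67† in KO and -5.21† and -4.32† in WT HSC of primary recipients. All 4 secondary arrays detected it and no primary array did, and the genotypes overlapped in secondary recipients. Set against the lowest detectable signal of the primary arrays, without centring on the median gene, it was at least 6.60-fold higher in secondary recipients in KO (limma, adjusted p = 0.717) and at least 4.65-fold higher in WT (adjusted p = 0.413). Its second probe was above background on 3 arrays, both KO secondary arrays and replicate 1 of WT secondary. Chek1, the kinase downstream of Atr, had levels of -1.004 and -4.94 in KO and -0.72 and -0.57 in WT HSC of secondary recipients, and -4.13 and -1.38† in KO and -3.51 and -2.02 in WT HSC of primary recipients, and replicate 2 of KO secondary stood far below the other secondary arrays. The Mre11 complex, which binds broken ends, is made of Mre11a, Rad50 and Nbn. Mre11a was above background on all 8 arrays, at 2.18 and 0.43 in KO and 0.82 and 1.52 in WT HSC of secondary recipients, and 1.63 and 4.44 in KO and 1.55 and 3.04 in WT HSC of primary recipients, and its groups overlapped in secondary recipients. Rad50 had levels of -3.02 and -4.16 in KO and -2.97 and 2.11 in WT HSC of secondary recipients, and -4.51 and 0.55 in KO and -4.38 and -2.11† in WT HSC of primary recipients, with replicate 2 of WT secondary above all others. Nbn had levels of 0.40 and -4.11 in KO and 0.25 and -2.38 in WT HSC of secondary recipients. Its brightest probe was above background on replicate 1 of WT primary and on no other primary array. On that probe Nbn was at least 2.43-fold higher in secondary recipients in KO (limma, adjusted p = 0.719). A further probe of Nbn was above background on replicate 1 of KO primary. Its change of secondary against primary recipients in KO was -1.54, against 3.07 on the brightest probe.

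**Figure D4:**
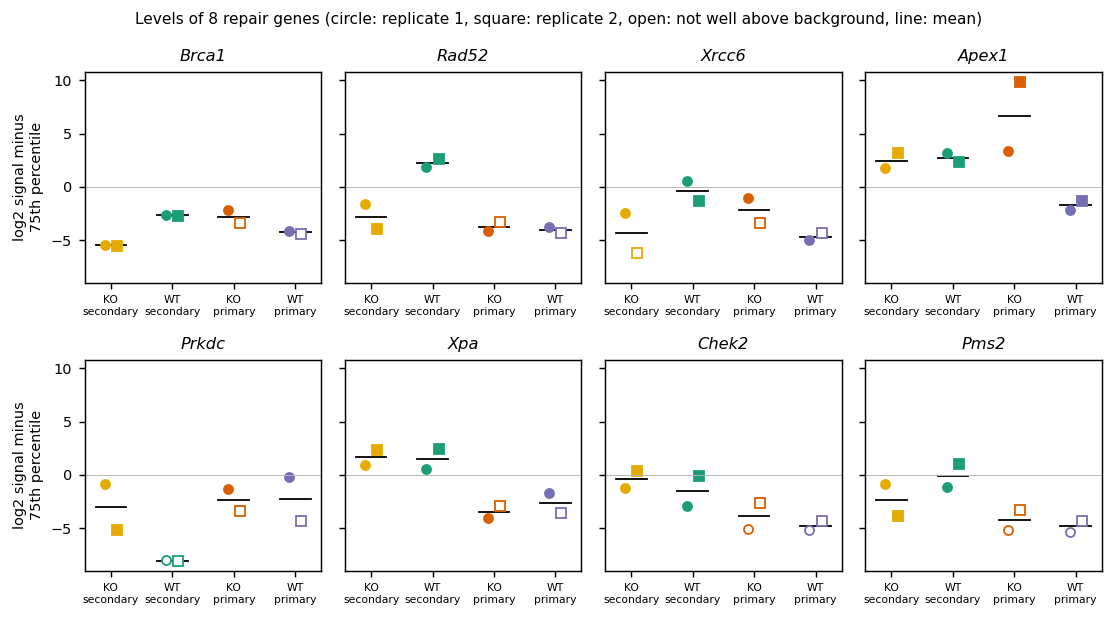
Levels (log2 signal minus the 75th percentile of the array) of 8 repair genes in the 4 groups, with a circle for replicate 1, a square for replicate 2, open symbols where the probe was not well above background and a line at the mean of the 2 arrays. Rad52 and Xrcc6 have their highest mean in WT secondary and Apex1 in KO primary, and Chek2 and Pms2 have open symbols in both primary groups.

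Of the end joining genes, both partners of the Ku heterodimer, which caps broken ends, had negative KO against WT changes in secondary recipients. The kinase that Ku recruits had a positive one (4.60), and none of them passed the threshold. Xrcc6 (Ku70) had levels of -2.42 and -6.16† in KO and 0.54 and -1.30 in WT HSC of secondary recipients, and -0.999 and -3.36† in KO and -4.95 and -4.36† in WT HSC of primary recipients. KO lay below WT in secondary recipients, with no overlap, and replicate 1 of KO lay above the rest in primary recipients. The KO against WT change was -4.37 (SE 1.54, limma, adjusted p = 0.911) in secondary recipients and 2.19 (SE 1.54) in primary recipients, or 3.81 there without the dim arrays. Xrcc5 (Ku80) was above background on all arrays, at 1.09 and -3.19 in KO and 1.08 and 0.01 in WT HSC of secondary recipients, and -1.41 and -0.68 in KO and -1.42 and -1.66 in WT HSC of primary recipients. Its KO and WT arrays overlapped in secondary recipients, and its change there was -2.05 (SE 1.47). Prkdc, the catalytic subunit of the DNA-dependent kinase, had levels of -0.82 and -5.14 in KO and -8.004† and -8.07† in WT HSC of secondary recipients, and -1.35 and -3.38† in KO and -0.19 and -4.33† in WT HSC of primary recipients. Neither WT secondary array detected it and both KO secondary arrays did. It was at least 9.38-fold higher in KO than in WT HSC of secondary recipients (limma, adjusted p = 0.900). Secondary against primary recipients in WT was -4.79 (SE 1.87, limma, adjusted p = 0.395), or -7.12 without the dim array. Only 1 of the 2 primary arrays detected it there, so no minimum fold is given. The replicates of KO secondary differed by more than 4 on this scale. Xrcc4, which holds Lig4, was above background on all arrays, with changes of 0.58 (SE 1.21) in secondary and 1.08 (SE 1.21) in primary recipients, or 0.37 there without the dim arrays.

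In base excision repair, Apex1 had the largest change of any member. Apex1, the endonuclease that cuts at sites where a base was lost, had levels of 1.76 and 3.19 in KO and 3.18 and 2.34 in WT HSC of secondary recipients, and 3.41 and 9.90 in KO and -2.16 and -1.29 in WT HSC of primary recipients. Both KO primary arrays stood above both WT primary arrays, and the dim replicate 2 stood far above replicate 1. In secondary recipients the genotypes overlapped. The change of KO against WT in primary recipients was 8.09 (SE 1.97, limma, adjusted p = 0.995), and 5.42 without the dim arrays (adjusted p = 0.460). In secondary recipients it was -0.74 (SE 1.97). Secondary against primary recipients was -3.65 in KO, or -0.69 without the dim array, and 5.47 in WT. Both secondary arrays lay below both primary arrays in KO and above them in WT, and arrays apart in opposite directions in KO and WT, whichever the orientation, occurred in 1 of 38 members (2.63%, background 1.37%). A lone probe reads Apex1, so no further probe bears on it, and its sequence is shown for that reason.
Apex1, chr14:49848759-49848818, plus strand: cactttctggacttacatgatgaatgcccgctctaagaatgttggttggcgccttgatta

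Mutyh, the glycosylase that removes adenine opposite oxidised guanine, had levels of -2.80 and -3.79 in KO and -3.79 and -4.45 in WT HSC of secondary recipients, and -3.05 and -3.46† in KO and -2.44 and -0.62 in WT HSC of primary recipients. Both WT primary arrays lay above both WT secondary arrays, and on replicate 1, detected in both genotypes, KO lay below WT in primary recipients. The change of KO against WT in primary recipients was -2.01 (SE 1.06, limma, adjusted p = 0.995), and -0.76 without the dim arrays. Secondary against primary recipients in WT was -1.60, and -0.95 without the dim array. Ogg1, the glycosylase for oxidised guanine itself, had levels of -6.004 and 0.56 in KO and -2.72 and -2.33 in WT HSC of secondary recipients, and -4.14 and -3.46† in KO and -3.72 and -3.78† in WT HSC of primary recipients, and the KO secondary arrays were the lowest and the highest of the 8. Ung, which removes uracil, had its KO and WT arrays overlap in both kinds of recipient, at -0.22 and -5.67 in KO and 0.48 and -2.82 in WT HSC of secondary recipients, and 1.91 and -2.07† in KO and -1.87 and -4.18† in WT HSC of primary recipients. Parp1, which marks nicked DNA with ADP-ribose, had levels of 0.58 and -1.62 in KO and 1.01 and 0.63 in WT HSC of secondary recipients, and 0.06 and -1.56† in KO and -0.81 and -1.03 in WT HSC of primary recipients, with KO below WT in secondary recipients, a change of -1.80 (SE 1.14). Xrcc1, the scaffold of single-strand break repair, was above background on all arrays and its highest value, 6.42, came from the dim WT primary array.

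Among the genes of nucleotide excision repair, Xpa came nearest to the threshold of all members. Xpa, which checks the lesion and positions the nucleases, had levels of 0.96 and 2.37 in KO and 0.54 and 2.41 in WT HSC of secondary recipients, and -4.02 and -2.92† in KO and -1.65 and -3.56† in WT HSC of primary recipients. All 4 secondary arrays lay above all 4 primary arrays, and the genotypes overlapped in secondary recipients. Secondary against primary recipients was 5.66 in KO (SE 1.22, limma, adjusted p = 0.701) and 5.08 in WT (adjusted p = 0.376), and 5.92 in KO without the dim array. Ercc2 (Xpd), a helicase of the transcription factor TFIIH, had levels of -1.44 and -0.79 in KO and -1.20 and -0.69 in WT HSC of secondary recipients, and 0.11 and 0.44 in KO and 1.30 and 1.21 in WT HSC of primary recipients. Both KO arrays lay below both WT arrays in primary recipients, at -1.26 (SE 0.92, limma, adjusted p = 0.995), or -1.33 without the dim arrays, and all 4 secondary arrays lay below all 4 primary ones. Ercc1, part of the nuclease that cuts on the 5′ side of the lesion, had KO below WT in primary recipients at -0.58 and -0.74 in KO and 0.39 and -0.03 in WT HSC of primary recipients, and overlapped in secondary recipients. Xpc, the damage sensor of the pathway, had levels of -1.96 and 0.36 in KO and -2.71 and 0.16 in WT HSC of secondary recipients, and -2.17 and 2.82 in KO and -1.72 and 2.63 in WT HSC of primary recipients. On this probe, replicate 2 stood above replicate 1 in all 4 groups, and the KO against WT change in secondary recipients was 0.0199. A further probe of Xpc, 184 bases away and above background on 6 arrays, differed. Its levels were -0.023 and 1.77 in KO and -3.52 and -3.77 in WT HSC of secondary recipients. Its KO against WT change was 4.06 there and 0.075 in primary recipients. In KO, its change of secondary against primary recipients was 4.99. The brightest probe had -0.60 (SE 2.16) there, or 1.61 without the dim array, so the opposite sign held only with that array.

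Of the mismatch repair genes, Msh6, which recognises mispaired bases, had levels of 1.02 and -3.36 in KO and 0.44 and 0.34 in WT HSC of secondary recipients, and -3.73 and 0.11 in KO and 1.502 and 3.05 in WT HSC of primary recipients. Both KO arrays lay below both WT arrays in primary recipients, and in secondary recipients the KO arrays were the highest and the lowest. The change in primary recipients was -4.38 (SE 1.80, limma, adjusted p = 0.995), and -5.38 without the dim arrays. Pms2, which nicks the strand to be repaired, had levels of -0.83 and -3.86 in KO and -1.16 and 1.01 in WT HSC of secondary recipients, and -5.14† and -3.33† in KO and -5.34† and -4.32† in WT HSC of primary recipients. It was at least 1.73-fold higher in secondary than in primary recipients in KO (limma, adjusted p = 0.731) and at least 12.3-fold higher in WT (adjusted p = 0.376). A further probe of Pms2 was above background on replicate 1 of each secondary group and on no other array.

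On their brightest probes, the changes of the 4 Fanconi anaemia genes between KO and WT lay between -1.48 and 0.83 in secondary recipients and between 0.56 and 0.92 in primary recipients. Without the dim arrays those in primary recipients lay between -0.01 (Fancg) and 0.86 (Fancd2), with 3 above the median gene and 1 below it. Fancd2, which is ubiquitinated when a crosslink stalls a fork, had levels of -1.11 and -2.59 in KO and -3.25 and -1.63 in WT HSC of secondary recipients, and -0.90 and -0.93 in KO and -1.90 and -2.35† in WT HSC of primary recipients, with KO above WT in primary recipients at 0.92 (SE 1.07), or 0.86 without the dim arrays. Fancc and Fancg belong to the core complex that does so, and both were above background on all 8 arrays. Fancc had KO above WT in secondary recipients at -0.23 and 1.17 in KO and -0.93 and -0.69 in WT HSC of secondary recipients, a change of 0.83 (SE 1.25). Fancg did too, at -0.15 and -1.04 in KO and -1.58 and -1.49 in WT HSC of secondary recipients, with a change of 0.49 (SE 1.09), and 3 probes of Fancg had secondary below primary in WT, at -0.93, -0.81 and -0.72. Fanca, also of the core complex, was above background on 3 of the 4 secondary arrays, at -6.22† and -0.35 in KO and -5.63 and 1.12 in WT HSC of secondary recipients, and on no primary array. On this probe the mean of WT was at least 2.71-fold higher in secondary recipients (limma, adjusted p = 0.551). That minimum rests on replicate 2 of WT secondary. Replicate 1, at -5.63, lay below the lowest detectable level of replicate 1 of WT primary, -5.20. A further probe of Fanca was above background on replicate 1 of both primary groups. On it, secondary against primary recipients in WT was -1.49, the opposite sign, and KO against WT in secondary recipients was 3.37 (SE 1.12).

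Of the 38 members, 24 had several probes. Of those further probes, 21, of 17 genes, entered this comparison because 1 group or more detected them on both of its arrays. Their change of KO against WT had the same sign as that of the brightest probe for 12 of 21 (57.1%, against 58.4% of 9820 such probes of the array) in secondary recipients and for 13 of 21 (61.9%, against 52.8%) in primary recipients. For secondary against primary recipients the same held for 12 of 21 in KO (57.1%, against 57.8%) and 13 of 21 in WT (61.9%, against 59.6%). In 3 genes the probes overlap on the transcript, and their shared bases are given in capitals.
Ogg1, brightest probe, chr6:113299868-113299927, plus strand: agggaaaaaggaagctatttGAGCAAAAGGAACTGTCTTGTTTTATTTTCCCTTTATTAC
Ogg1, second probe, chr6:113299888-113299947, plus strand: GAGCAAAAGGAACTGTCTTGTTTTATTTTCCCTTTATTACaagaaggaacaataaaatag
Parp1, brightest probe, chr1:182436865-182437163, plus strand, across a splice junction: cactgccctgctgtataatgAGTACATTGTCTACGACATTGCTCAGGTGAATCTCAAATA
Parp1, second probe, chr1:182436885-182437183, plus strand, across a splice junction: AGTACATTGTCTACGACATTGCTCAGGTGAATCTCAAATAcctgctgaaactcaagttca
Wrn, brightest probe, chr8:34701912-34701971, minus strand: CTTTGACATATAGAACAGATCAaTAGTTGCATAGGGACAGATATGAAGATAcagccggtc
Wrn, second probe, chr8:34701921-34701980, minus strand: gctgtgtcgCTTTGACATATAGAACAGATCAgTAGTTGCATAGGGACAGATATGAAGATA

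The probes of Ogg1 and of Parp1 share 40 of 60 bases, and those of Wrn share 51 positions with 1 difference, A23G, counted from 1 at the 5′ end of the brightest Wrn probe. The second probe of Parp1 had levels of 0.84 and -6.76† in KO and 1.46 and 0.97 in WT HSC of secondary recipients, so that its change of KO against WT there was -4.63, against -1.80 on the brightest probe. The second probe of Ogg1 had -8.23† and -0.25 in KO and -4.03 and -3.49 in WT HSC of secondary recipients, again with the KO arrays as the lowest and the highest. Wrn, the helicase mutated in Werner syndrome in humans, had levels of -0.34 and -6.89† in KO and -5.91 and -6.66† in WT HSC of secondary recipients, and -0.73 and -2.80† in KO and -3.38 and -4.20† in WT HSC of primary recipients. Its second probe had 0.16 and -6.37† in KO and -5.66 and -5.32 in WT HSC of secondary recipients, and on both probes replicate 1 of KO stood highest of the 4. The GC content of the 38 brightest probes had a median of 44.2%, within 33.3% and 55.0%, against a median of 40.0% over all probes of the array.

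**Figure D5:**
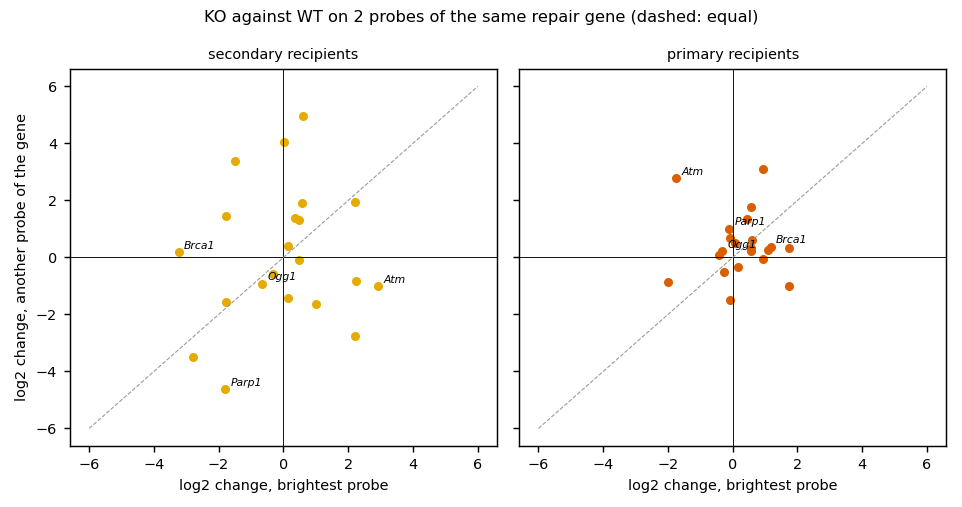
Change of KO against WT (log2, relative to the median gene) on a further probe of a repair gene, against that on its brightest probe, for 21 probes of 17 genes, in secondary recipients on the left and in primary recipients on the right. The sign was the same for 12 of 21 on the left and 13 of 21 on the right, and the points of Brca1 and Atm lie off the line on the left.

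Of 87 further repair genes listed by pathway, 79 were tested, and 0 passed the threshold in any comparison (limma). At an unadjusted p under 0.05, 1 was higher and 1 lower between KO and WT in secondary recipients (1.27% each, background 3.7% and 1.66%), and 0 higher and 1 lower in primary recipients (0% and 1.27%, background 1.99% and 1.98%). Between secondary and primary recipients, 6 were higher and 0 lower in KO (7.59% and 0%, background 3.27% and 2.77%), and 8 higher and 4 lower in WT (10.1% and 5.06%, background 5.43% and 6.53%). Their median change of KO against WT was -0.16 in secondary recipients and 0.06 in primary recipients, against -0.71 and 0.26 for the members. Their median change of secondary against primary recipients was 0.38 in KO and 0.52 in WT, against 0.21 and 1.58 for the members. Ddb2, which binds ultraviolet lesions, had levels of 2.39 and 0.02 in KO and 2.44 and 1.43 in WT HSC of secondary recipients, and -7.08† and -3.33† in KO and 2.68 and 7.599 in WT HSC of primary recipients. It was undetected on both KO primary arrays and at least 310-fold lower in KO than in WT HSC of primary recipients (limma, adjusted p = 0.995), and the groups overlapped in secondary recipients. Alkbh3, which reverses methylation of bases and had the lowest p of these genes among those lower in KO in secondary recipients, had levels of -3.55 and -1.35 in KO and 1.49 and 1.94 in WT HSC of secondary recipients, and -4.56 and -3.33† in KO and -3.84 and -4.27† in WT HSC of primary recipients. As for Rad52, both WT secondary arrays stood above the other 6. Its change of KO against WT in secondary recipients was -4.62 (SE 1.12, limma, adjusted p = 0.817). Ube2b, which works in damage tolerance with Rad18, had levels of 2.93 and 2.35 in KO and 1.74 and 2.46 in WT HSC of secondary recipients, and -2.11 and -1.71† in KO and -3.36 and -1.32 in WT HSC of primary recipients, with all 4 secondary arrays above all 4 primary ones.

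Of the members, 31 matched a RefSeq promoter of the GRCm38.p6 build, taken as 250 bases before to 50 after each start. The E box CANNTG, the motif class that E47 binds, was searched on both strands, and since it is its own reverse complement each site counts once. It occurred in a promoter of 17 of 31 members (54.8%), against 74.99% of 27025 genes. CACCTG or its complement CAGGTG occurred in 4 (12.9%, against 22.6%), and CAGCTG in 2 (6.45%, against 18.3%), both of which are also matches to CANNTG. A match is a string of letters in this window and shows no binding.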

How the data were processed

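RNA of sorted HSC from 4 groups of 2 was measured on 8 one-colour arrays with 43379 spots besides controls. The deposited scanner files hold spot intensities from the scanning software, which per the file headers was Agilent Feature Extraction 10.5.1.1, as background-subtracted processed signals that were not normalized between arrays. The deposited value table holds the ratio of each processed signal to the median of its array, and was used only as an alternative. Here log2 of the processed signal was taken minus the 75th percentile of the array, spots of 1 probe were averaged, and a gene was tested where 1 group or more detected any of its probes on both of its arrays. Each was read from the brightest of all its probes, which for Wrn is a probe that no group detected on both arrays. A probe with no gene name was kept as itself. The 23017 genes and unnamed probes were fitted together with limma 3.58.1 in R 4.3.3 over all 4 groups (4 residual degrees of freedom), or with genotype and recipient as additive terms (5), and Benjamini-Hochberg adjustment was applied with a threshold of 0.05. The fit was tested on simulated data.

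The members and lists were chosen with earlier results of these data known. Values on all 8 arrays were to be given for members with the lowest p-values per direction in each comparison, for those whose arrays lay apart in the same direction in both kinds of recipient and for the 2 of smallest range. Other members were named with their levels by pathway, and of the other repair genes those with the lowest p per direction in a comparison could be named. Alternatives covered background correction, normalization, filter, probe choice, the value table, array weights, the replicate number and the slide as blocks, and arrays left out. The number of arrays limits the precision. The mm8 annotation of exons and UTRs was not used here.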

Additional observations from a re-analysis of the deposited data

Results flagged for a closer look

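On its brightest probe, but not on a further probe above background on 3 arrays, the change of Lig4 turned direction. The KO arrays of the brightest probe lay below the WT arrays in secondary recipients and above them in primary recipients. The difference of its changes, secondary minus primary and before centring on the median gene, was -2.47, and it was not past the threshold (limma interaction, adjusted p = 0.9999). The secondary arrays of Apex1 lay below the primary arrays in KO HSC and above them in WT HSC. The difference of those changes, KO minus WT and before centring, was -8.66 (limma interaction, adjusted p = 0.9999). Opposite directions of the first kind occurred in 2.73% and of the second kind in 1.37% of all genes tested.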

How the results depend on the processing

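No repair gene passed the threshold under any alternative run except Xpa, 1 gene, in secondary against primary recipients over both genotypes under quantile normalization. All 449 alternative values of 25 single-gene results, named for low p-values or arrays apart, kept their direction and their side of the threshold. Further probes of these genes did not always keep the direction. For KO against WT in secondary recipients they gave 0.18 for Brca1, -1.01 for Atm and -0.82 for Lig3, against -3.24, 2.93 and 2.24 on the brightest probes. Over the members, 12 of 21 further probes had the same sign in that comparison. Over both genotypes, genes past the threshold numbered 0 in the analysis as reported, 1 with normexp background, 205 with quantile normalization, 24 with the mean of all probes, 103 with each probe by itself, 111 with array weights and 78 without both dim arrays. There the members' median change was 0.34 over genes above background on all 8 arrays, 1.20 without both dim arrays and 1.58 with the slide as a block, which leaves the WT arrays to inform it. The median of secondary against primary recipients in WT was 0.93 with normexp, 0.36 over genes above background on all 8 arrays and 1.13 with the mean of all probes, and in KO it was -0.20 over genes above background on all 8 arrays and -0.16 with the mean of all probes. The median difference between the KO against WT changes was -0.33 with normexp, -0.19 over genes above background on all 8 arrays, -0.30 with the mean of all probes and -0.34 without both dim arrays. The cause was not tested. Leaving out each array in turn gave 0 to 540 genes past the threshold for KO against WT in primary recipients, the 540 without replicate 1 of WT primary, and 0 in the other comparisons. The members' median then ranged from -0.91 to -0.38 (KO against WT, secondary recipients), 0.09 to 0.62 (primary recipients), -0.17 to 0.57 (secondary against primary, KO), 1.06 to 2.03 (WT), -1.19 to -0.28 (difference), 0.30 to 1.08 (secondary against primary, both genotypes) and -0.49 to -0.02 (KO against WT, both recipients). With the replicate block, 0 genes passed in all 7 comparisons, and the medians were those without it (-0.71 for KO against WT in secondary and 0.26 in primary recipients). Same-numbered arrays deviated together in the primary groups (r = 0.15) but not in the other pairs of groups (-0.03 to 0.01), so the numbers were not taken to pair the arrays. Low signal limits the primary comparisons, where 17 and 19 of 38 members were above background on the dim KO and WT arrays.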
